A study of Mus musculus with 12 samples.

Results

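The genes described here are 9 proteoglycan core protein genes of the vessel wall, *Bgn*, *Dcn*, *Aspn*, *Lum*, *Fmod*, *Prelp*, *Omd*, *Ogn*, and *Vcan*, chosen by symbol from the 52636 genes of the count table. Each matched a single Ensembl gene, and all 9 passed the filter on low counts that left 22320 genes to test. The data are bulk RNA-seq of GFP+ smooth muscle cells (SMCs) sorted from the aortas of GFPiSMC and Tgfbr1/2iSMCKO mice. Each genotype gave 3 numbered libraries of the ascending aorta with the arch (ascending/arch) and 3 of the descending thoracic segment, or 12 libraries in 4 groups. Libraries of a genotype that share a number are taken here to be from the same animal, which the labels do not state. Both lines were male C57BL/6J mice with *Myh11-CreERT2*, a tamoxifen-inducible Cre driven by an SMC promoter and inserted on the Y chromosome, and the *mT/mG* reporter, which turns on GFP in cells where Cre has been active. Only Tgfbr1/2iSMCKO mice also carried floxed *Tgfbr1* and *Tgfbr2* alleles, so the line and the deletion of these TGF-β receptors go together. Aortas were taken at 12 weeks of age. Both genotypes had received tamoxifen for 5 days. Sorted cells were profiled 1 week after induction in mature mice, which is the course of 2 mg/d started at 11 weeks. The labels also name a course of 1 mg/d at 4 weeks, which the methods give for a separate subgroup. Cells were single, viable, and GFP+ after cold digestion of individual segments, a gate that takes only cells in which Cre was active.

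Small leucine-rich proteoglycans are secreted proteins built of leucine-rich repeats that bind collagen fibrils and set their diameter and spacing, and several of them also bind TGF-β. Biglycan (*Bgn*), decorin (*Dcn*), and asporin (*Aspn*) form class I, of which asporin lacks the usual glycosaminoglycan chains. Lumican (*Lum*), fibromodulin (*Fmod*), PRELP (*Prelp*), and osteomodulin (*Omd*) are class II proteins, many with keratan sulfate, and osteoglycin (*Ogn*, also called mimecan) is a class III protein. Versican (*Vcan*) is no member of this family. It is a large chondroitin sulfate proteoglycan that binds hyaluronan and swells the space between the elastic laminae of the media.

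In brief, *Bgn*, *Aspn*, *Omd*, and *Vcan* fell in Tgfbr1/2iSMCKO SMCs, *Ogn* and *Prelp* were abundant and did not pass the test, and *Lum* was lower in the descending segment than in the ascending/arch in both genotypes. *Dcn* and *Fmod* passed no test in the main comparisons.

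Total counts were 25007747 to 31392396 in GFPiSMC and 20467027 to 30354994 in Tgfbr1/2iSMCKO libraries, from 9208 to 20000 sorted cells. Values are CPM, counts divided by the TMM-adjusted size of each library. P values measure the spread between these libraries, and no pair of libraries agreed within sampling noise. *Tgfbr2* stood at 88.9 to 128 CPM in GFPiSMC and at 68.2 to 102 CPM in Tgfbr1/2iSMCKO libraries (log2 fold change -0.26 ± 0.11 SE, adjusted p = 0.233), and *Tgfbr1* at 196 to 292 and 198 to 295 CPM (0.10 ± 0.12, adjusted p = 0.790). These counts cover whole genes, and reads of the floxed parts were not examined, so they do not check the labels. The SMC markers *Myh11*, *Acta2*, and *Cnn1* summed to 27985 to 39732 CPM in every library. Libraries differed in base composition. In both libraries of Tgfbr1/2iSMCKO replicate 3 and the descending library of GFPiSMC replicate 2, or 3 in all, genes of high GC content exceeded those of low GC content by 0.455 to 0.470 on the log2 scale (the GC index), against -0.504 to 0.242 in the others. The low end was as far from 0, with the descending library of Tgfbr1/2iSMCKO replicate 2 at -0.504 and the ascending/arch library of GFPiSMC replicate 2 at -0.41, and these were left out only with their animals. Results for members are therefore also given without these 3 libraries or with the GC index in the fit.

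Over both segments, 4 of the 9 members were lower in Tgfbr1/2iSMCKO SMCs and 0 were higher, by an adjusted p under 0.05 and a change beyond 2-fold. Of all genes tested, 1.64% were called lower and 1.03% higher. The median log2 fold change of the 9 members was -0.39, against 0.04 for all genes tested. At an unadjusted p under 0.05 without a fold limit, *Prelp* was the 1 member higher. DESeq2 also called 0 members higher, against 0.833% of all genes with any count, a wider base than the genes tested in edgeR. *Bgn* is named by the study from these same libraries, so its fall is not independent evidence. With counts summed per animal the same 4 members were called lower, beside 1.05% of all genes.

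**Figure D1:**
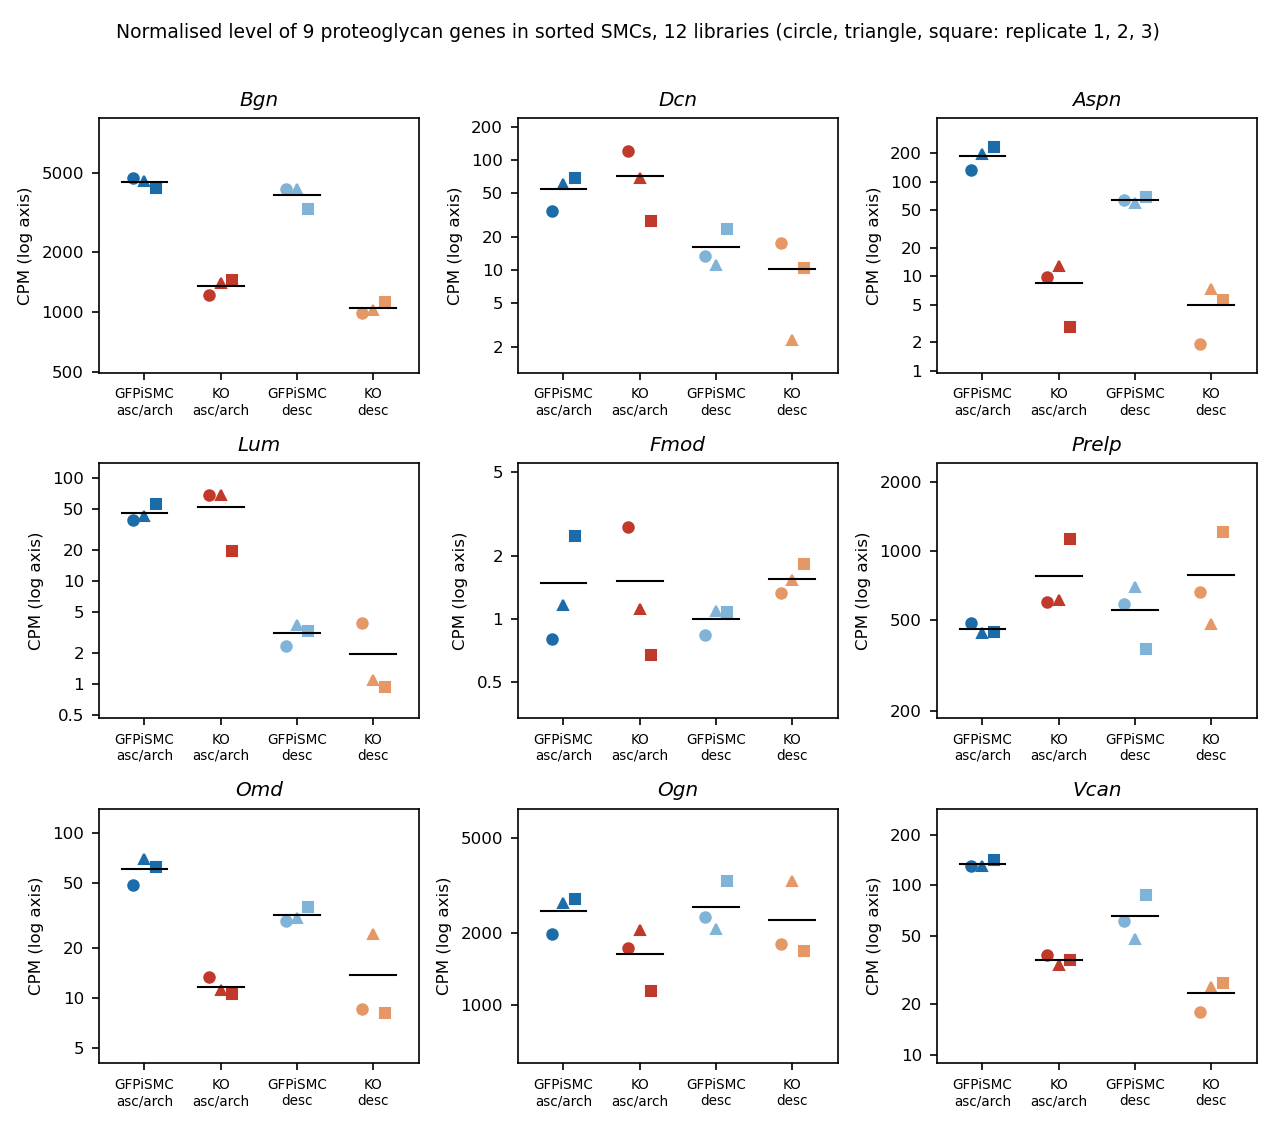
Level of the 9 genes in each of 12 libraries, in CPM on a log axis that differs between panels. Points are libraries, marked by replicate, and bars are means of 3. KO stands for Tgfbr1/2iSMCKO. The KO points of Bgn, Aspn, Omd, and Vcan lie below all GFPiSMC points of either segment, and Lum is low in both descending groups.

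*Bgn* (ENSMUSG00000031375.17, GRCm38 chromosome X, 73483602 to 73495933, plus strand) had the highest mean CPM among the members in each GFPiSMC group. In the descending library of GFPiSMC replicate 3, *Ogn* (3301 CPM) lay just above *Bgn* (3281 CPM). In GFPiSMC libraries it stood at 4712, 4573, and 4198 CPM in the ascending/arch and at 4151, 4172, and 3281 CPM in the descending segment. In Tgfbr1/2iSMCKO libraries the values were 1219, 1391, and 1447 CPM and 986, 1024, and 1125 CPM. All 6 Tgfbr1/2iSMCKO libraries lay below all 6 controls, as did 2.89% of all genes tested. The log2 fold change was -1.81 ± 0.09 (SE, 6 against 6 libraries), or 3.51-fold lower, with an adjusted p of 5.52e-08. The effect was -1.73 ± 0.13 in the ascending/arch and -1.89 ± 0.13 in the descending segment.

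*Aspn* (ENSMUSG00000021388.14, chromosome 13, 49544443 to 49567565, plus strand), a collagen-binding protein that competes with decorin for its site and binds TGF-β, had the largest change among the members. In GFPiSMC libraries it stood at 134, 196, and 235 CPM in the ascending/arch and at 63.8, 59.0, and 69.7 CPM in the descending segment. In Tgfbr1/2iSMCKO libraries it was at 9.88, 12.9, and 2.87 CPM and at 1.90, 7.26, and 5.67 CPM, from as few as 46 counts. The highest Tgfbr1/2iSMCKO library was below the lowest control library. The log2 fold change was -4.09 ± 0.40, or 17.0-fold lower (adjusted p = 3.35e-05), with -4.47 ± 0.57 in the ascending/arch and -3.70 ± 0.55 in the descending segment.

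*Dcn* (ENSMUSG00000019929.16, chromosome 10, 97479609 to 97518143, plus strand), the archetype of the family and a major product of adventitial fibroblasts, showed no such separation. In the ascending/arch it stood at 34.5, 60.1, and 68.3 CPM in GFPiSMC and at 120.3, 69.0, and 27.6 CPM in Tgfbr1/2iSMCKO libraries. In the descending segment it stood at 13.5, 11.1, and 23.4 CPM and at 17.5, 2.31, and 10.5 CPM in the same order. The genotypes overlapped in both segments, and the spread within the Tgfbr1/2iSMCKO groups was wide. The log2 fold change was -0.12 ± 0.46 (adjusted p = 0.950), which does not show that the level was the same. Its sign turned with several settings, to 0.25 with counts summed per animal and to 0.06 without the 3 libraries of high GC index.

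*Lum* (ENSMUSG00000036446.5, chromosome 10, 97565128 to 97572703, plus strand), a regulator of fibril assembly best known from the cornea, lies downstream of *Dcn* in the same orientation. Its ascending/arch values were 39.3, 43.6, and 56.6 CPM in GFPiSMC and 69.8, 69.3, and 19.6 CPM in Tgfbr1/2iSMCKO libraries. Its descending values were 2.34, 3.79, and 3.29 CPM and 3.93, 1.11, and 0.944 CPM. The genotypes overlapped in both segments, with a log2 fold change of -0.21 ± 0.39 (adjusted p = 0.887) that became 0.27 without the 3 libraries of high GC index.

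*Fmod* (ENSMUSG00000041559.7, chromosome 1, 134037254 to 134048277, plus strand), which guides collagen cross-linking, was near the limit of what these libraries can measure. It had 21 to 80 counts per library, or 0.677 to 2.75 CPM, and a log2 fold change of 0.33 ± 0.39 (adjusted p = 0.793). Its 3 Tgfbr1/2iSMCKO libraries of the descending segment, at 1.33 to 1.82 CPM, were above the 3 controls at 0.844 to 1.09 CPM, as was the case for 7.19% of all genes, while the ascending/arch groups overlapped.

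*Prelp* (ENSMUSG00000041577.5, chromosome 1, 133910304 to 133921414, minus strand), which anchors basement membranes to the collagen below, had the largest positive estimate. In the ascending/arch it stood at 485, 439, and 444 CPM in GFPiSMC and at 598, 610.1, and 1127 CPM in Tgfbr1/2iSMCKO libraries. In the descending segment it stood at 589.5, 693, and 372 CPM and at 659.5, 481, and 1208 CPM. The ascending/arch groups did not overlap (8.87% of all genes lay that way), the descending groups did, and both libraries of Tgfbr1/2iSMCKO replicate 3 were the highest of the 12. The log2 fold change was 0.64 ± 0.23 (unadjusted p = 0.0168, adjusted p = 0.167), and 0.22 without replicate 3 (adjusted p = 0.613).

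*Omd* (ENSMUSG00000048368.9, chromosome 13, 49582462 to 49592822, plus strand), a mineral- and collagen-binding protein first known from bone, fell. In GFPiSMC libraries it stood at 48.6, 69.8, and 62.2 CPM in the ascending/arch and at 29.2, 30.6, and 35.5 CPM in the descending segment. In Tgfbr1/2iSMCKO libraries it was at 13.5, 11.2, and 10.6 CPM and at 8.61, 24.5, and 8.10 CPM. All 6 Tgfbr1/2iSMCKO libraries were below all 6 controls, with replicate 2 of the descending segment the nearest. The fall was 3.44-fold, a log2 fold change of -1.78 ± 0.31 (adjusted p = 0.00313). The ascending/arch effect of -2.36 ± 0.38 passed the test (adjusted p = 0.00809), and the descending effect of -1.21 ± 0.37 did not (adjusted p = 0.176). Without GFPiSMC animal 2 the ascending/arch effect was -2.24 (adjusted p = 0.0633), and without Tgfbr1/2iSMCKO animal 2 the descending effect was -1.92 (adjusted p = 0.00581).

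*Ogn* (ENSMUSG00000021390.6, chromosome 13, 49608046 to 49624501, plus strand), a regulator of fibril growth in the arterial wall, remained abundant. It stood at 1969, 2666, and 2769 CPM in GFPiSMC and at 1726, 2046, and 1139 CPM in Tgfbr1/2iSMCKO libraries of the ascending/arch. Descending values were 2333, 2080.2, and 3301 CPM and 1798, 3284, and 1682 CPM. The genotypes overlapped in both segments, and the log2 fold change was -0.39 ± 0.20 (adjusted p = 0.384). Without Tgfbr1/2iSMCKO animal 2 it was -0.67, with an adjusted p of 0.0410 but under the 2-fold limit.

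*Vcan* (ENSMUSG00000021614.16, chromosome 13, 89655312 to 89742509, minus strand) fell in both segments. In GFPiSMC libraries it stood at 131, 131, and 142 CPM in the ascending/arch and at 61.8, 48.6, and 87.4 CPM in the descending segment. In Tgfbr1/2iSMCKO libraries it was at 38.9, 34.0, and 36.4 CPM and at 17.8, 25, and 26.6 CPM. All 6 Tgfbr1/2iSMCKO libraries were below all 6 controls. The fall was 3.25-fold, a log2 fold change of -1.70 ± 0.16 (adjusted p = 2.95e-05). It was -1.89 ± 0.23 in the ascending/arch (adjusted p = 0.00101) and -1.51 ± 0.23 in the descending segment (adjusted p = 0.00444). The latter was -1.35 without Tgfbr1/2iSMCKO animal 1 (adjusted p = 0.0528). The antisense gene *Gm4117*, which overlaps *Vcan* and had 351 to 1526 counts against 430 to 3817 for *Vcan*, had a log2 fold change of -0.74 (adjusted p = 0.0379). Whether counting used strand is not given in the sources used here, so reads of such a pair cannot be told apart. *Gm4117* and the partner of *Prelp*, *Gm15851* (591 to 3101 counts, 0.84, adjusted p = 0.104), were looked at after their values were seen.

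Within segments, 4 members were called in the ascending/arch (*Bgn*, *Aspn*, *Omd*, *Vcan*) and 3 in the descending segment (*Bgn*, *Aspn*, *Vcan*), each lower in Tgfbr1/2iSMCKO SMCs. The share of all genes called lower was 0.811% and 0.995%. The Tgfbr1/2iSMCKO libraries of *Bgn*, *Aspn*, *Omd*, and *Vcan* were all below the controls in each segment, as were those of 10.1% of all genes in the ascending/arch and 7.75% in the descending segment. No member had a genotype effect that differed between the segments by edgeR after adjustment, and 0 were called by DESeq2. The 1 member with an unadjusted p under 0.05 for that difference was *Omd* (1.15 ± 0.52 for the descending minus the ascending/arch effect, unadjusted p = 0.0461, adjusted p = 1.00). Of all genes, 0% passed this test, so the call of *Omd* in a single segment is not shown to differ between segments.

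**Figure D2:**
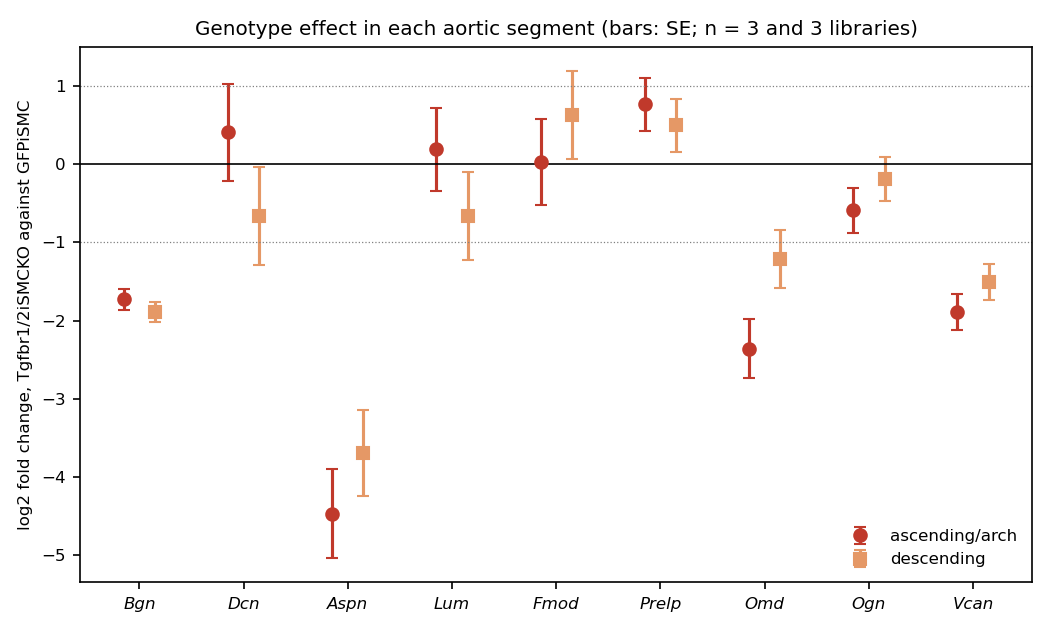
Log2 fold change of Tgfbr1/2iSMCKO against GFPiSMC for each gene, in the ascending/arch (circles) and the descending segment (squares), with SE bars from 3 against 3 libraries. Dotted lines mark a 2-fold change. Bgn, Aspn, Omd, and Vcan lie below the lower line in both segments, and Dcn and Lum lie above 0 in the ascending/arch and at -0.66 in the descending segment.

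*Aspn*, *Omd*, and *Ogn* lie side by side with *Ecm2*, another gene for a leucine-rich repeat matrix protein, in a stretch of 119.7 kb on chromosome 13 (49504810 to 49624501). The genotype effects of these neighbours were unequal. *Ecm2* stood at 511 to 627 CPM in the 6 control and 194 to 306 CPM in the 6 Tgfbr1/2iSMCKO libraries and fell by 1.23 on the log2 scale (SE 0.10, adjusted p = 5.96e-06). From *Ecm2* on, the log2 fold changes were -1.23, -4.09, -1.78, and -0.39, so the order along the chromosome did not follow the size of the effect. The gene *Cenpp* runs through all 4 on the opposite strand with 22 to 110 counts, against 46 to 5717 for *Aspn*, and had a log2 fold change of 0.12 (adjusted p = 0.935). *Dcn* and *Lum* (with *Kera* and *Epyc* in 202.8 kb) and *Prelp* and *Fmod* (with *Optc* in 151.1 kb) are the other neighbours among the members.

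**Figure D3:**
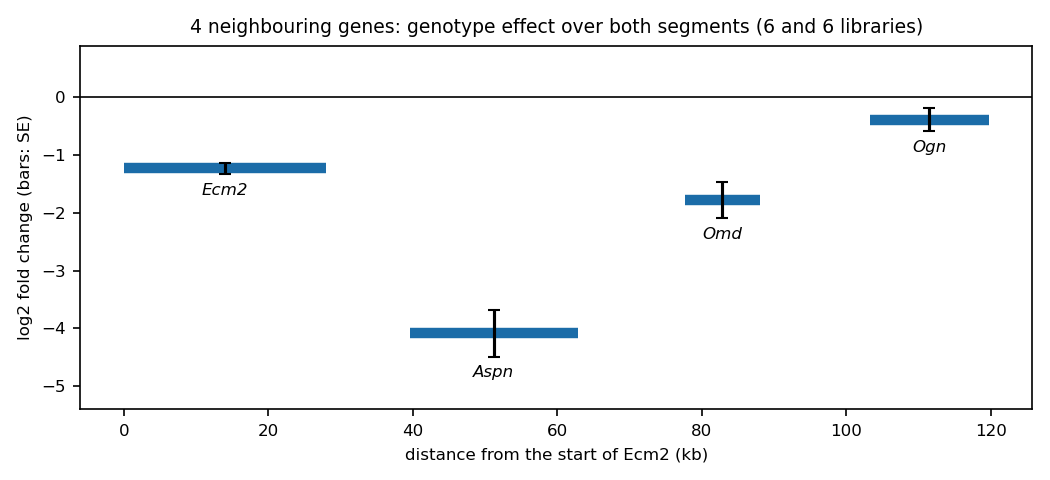
The 4 neighbouring genes of chromosome 13 by distance from the start of Ecm2 in kb, with the log2 fold change over both segments on the vertical axis. Thick bars span each gene and thin bars are SEs over 6 against 6 libraries. Aspn lies at -4.09, with Ecm2 at -1.23, Omd at -1.78, and Ogn at -0.39.

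The RefSeq sequences upstream of the 4 members that fell, and of *Ogn* as the neighbour that did not pass, are shown because SMAD proteins, which carry the TGF-β receptor signal to the nucleus, bind DNA at the letters AGAC or their complement GTCT. RefSeq gave a promoter for 7 of the 9 members, without *Dcn* and *Lum*. Each line below holds the 250 bases before the start site on the gene's own strand, 5′ to 3′ (GRCm38.p6), with every AGAC or GTCT in capitals. The intervals are chrX:73483351-73483600 for *Bgn* (plus strand), chr13:49544193-49544442 for *Aspn* (plus), chr13:49582212-49582461 for *Omd* (plus), chr13:89742513-89742762 for *Vcan* (minus), and chr13:49607765-49608014 for *Ogn* (plus).
Bgn: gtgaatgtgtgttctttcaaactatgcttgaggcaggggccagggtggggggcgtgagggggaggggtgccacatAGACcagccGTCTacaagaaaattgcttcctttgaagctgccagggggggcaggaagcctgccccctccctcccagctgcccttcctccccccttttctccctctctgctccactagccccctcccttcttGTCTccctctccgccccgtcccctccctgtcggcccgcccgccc
Aspn: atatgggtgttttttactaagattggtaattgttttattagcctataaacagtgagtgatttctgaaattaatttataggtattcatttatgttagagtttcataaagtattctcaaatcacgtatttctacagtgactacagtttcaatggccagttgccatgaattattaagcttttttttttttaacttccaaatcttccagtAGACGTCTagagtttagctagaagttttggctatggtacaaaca
Omd: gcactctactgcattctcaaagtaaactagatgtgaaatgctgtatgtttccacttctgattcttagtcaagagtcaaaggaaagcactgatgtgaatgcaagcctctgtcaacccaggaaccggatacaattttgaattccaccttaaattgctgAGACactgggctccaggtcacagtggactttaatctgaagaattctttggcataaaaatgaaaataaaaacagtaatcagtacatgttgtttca
Vcan: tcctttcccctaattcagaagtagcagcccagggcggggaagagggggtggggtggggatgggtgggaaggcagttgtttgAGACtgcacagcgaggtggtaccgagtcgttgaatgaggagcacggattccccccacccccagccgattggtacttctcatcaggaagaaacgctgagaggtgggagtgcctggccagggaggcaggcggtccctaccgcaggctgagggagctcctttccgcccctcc
Ogn: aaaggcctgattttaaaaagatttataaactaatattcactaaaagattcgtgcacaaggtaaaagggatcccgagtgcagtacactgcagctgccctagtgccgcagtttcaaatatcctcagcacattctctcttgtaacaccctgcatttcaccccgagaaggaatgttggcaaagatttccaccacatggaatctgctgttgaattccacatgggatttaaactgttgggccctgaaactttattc

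The *Aspn* stretch held AGAC and GTCT side by side, starting 44 and 40 bases before the start site. *Bgn* held 3 such matches, *Omd* and *Vcan* 1 each, and *Ogn* 0. *Fmod* and *Prelp*, which were not called and whose stretches are not printed, held 4 and 2, so matches did not separate the members that fell from the others, and 82.9% of all 32851 promoters of this length in the table held at least 1. The longer CAGAC (or GTCTG), which contains AGAC, was in 42.2% of all promoters and in none of these 5, but occurred 2 times upstream of *Fmod* and 1 time upstream of *Prelp*. The palindrome GTCTAGAC (0.167%) and the CArG box that binds serum response factor in SMC genes (1.47%) matched none of the 7. The upstream stretches differed in base composition, with GC contents of 64.4% for *Bgn* and 62.4% for *Vcan* against 30.0% for *Aspn*, 38.4% for *Omd*, and 42.0% for *Ogn* (median of all, 52.4%). GGGCGG or its complement, the core of sites for SP1 at GC-rich starts, occurred 3 times upstream of *Bgn*, 2 times upstream of *Vcan*, and 0 times upstream of *Aspn*, *Omd*, and *Ogn* (32.7% of all promoters). These are matches of letters, not shown sites.

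Levels of different genes were compared per length, as CPM per kb of the longest coding transcript. In the GFPiSMC ascending/arch *Bgn* led with 1858 ± 109.9 CPM per kb (SD, n = 3), followed by *Ogn* with 962 ± 169, *Prelp* with 126 ± 6.93, *Aspn* with 80.8 ± 21.8, *Dcn* with 30.9 ± 10, *Omd* with 26.8 ± 4.76, *Lum* with 19.0 ± 3.68, *Vcan* with 10.8 ± 0.537, and *Fmod* with 0.476 ± 0.282. Adjacent genes in this order did not overlap between libraries, except *Dcn* with *Omd* and *Omd* with *Lum*. The *Vcan* value assumes its longest coding form of 12427 bases, and shorter splice forms would give a higher value per kb.

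In Tgfbr1/2iSMCKO SMCs *Ogn* had the highest mean. It stood at 638 ± 179 CPM per kb in the ascending/arch, where *Bgn* was at 559 ± 49.0 and the libraries overlapped. In the descending segment *Ogn* was at 879 ± 348 and *Bgn* at 432 ± 29.7, without overlap. In the ascending/arch library of replicate 3, of high GC index, *Bgn* led with 598 against 444 CPM per kb. The highest descending *Ogn* value, 1280.0 CPM per kb, was in replicate 2, at an index of -0.504. *Aspn*, next below *Prelp* in both control groups, dropped to 3.67 ± 2.20 and 2.12 ± 1.18 CPM per kb, with a mean below that of *Omd* in both Tgfbr1/2iSMCKO groups and with libraries that overlapped those of *Vcan* in each and those of *Omd* in the ascending/arch. As a share of the summed CPM per kb of all 9 members, *Bgn* went from 59.8% ± 5.21 to 37.8% ± 4.67 in the ascending/arch and from 56.9% ± 7.56 to 28.5% ± 4.95 in the descending segment. *Prelp* went from 4.06% ± 0.394 to 14.8% ± 6.71 and from 5.43% ± 1.65 to 14.6% ± 7.80. Its highest shares, 22.5% and 22.7%, were in the Tgfbr1/2iSMCKO replicate 3 libraries, which had a high GC index. A share also rises when another member falls, as *Bgn* did. These shares and orders rest on the same values as the tests above and were not tested on their own.

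Between the segments, 1 member was called in each genotype, *Lum*, which was lower in the descending segment by 14.8-fold in GFPiSMC SMCs (log2 fold change -3.89 ± 0.60, adjusted p = 0.0146) and by 26.6-fold in Tgfbr1/2iSMCKO SMCs (-4.73 ± 0.62, adjusted p = 0.0104). Only 0.309% of all genes were called lower in this comparison in GFPiSMC and 0.0896% in Tgfbr1/2iSMCKO SMCs. All 6 descending libraries, at 0.944 to 3.93 CPM, lay below all 6 ascending/arch libraries, at 19.6 to 69.8 CPM. In GFPiSMC SMCs the call was lost without animal 1 (-3.80, adjusted p = 0.208), animal 2 (-4.09, adjusted p = 0.142), or animal 3 (-3.75, adjusted p = 0.172). In Tgfbr1/2iSMCKO SMCs it was lost without animal 2 (-4.20, adjusted p = 0.124).

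In GFPiSMC SMCs 6 of the 9 members, *Bgn*, *Dcn*, *Aspn*, *Lum*, *Omd*, and *Vcan*, had all 3 descending libraries below all 3 ascending/arch libraries, as did 7.80% of all genes tested. Apart from *Lum* these differences did not pass the test. *Dcn* had a log2 fold change of -1.76 ± 0.64 (adjusted p = 0.660), *Aspn* of -1.55 ± 0.50 (adjusted p = 0.505), *Vcan* of -1.03 ± 0.22 (adjusted p = 0.100), and *Omd* of -0.92 ± 0.37 (adjusted p = 0.750). In Tgfbr1/2iSMCKO SMCs *Bgn*, *Dcn*, *Lum*, and *Vcan* were so arranged (4.08% of all genes), with -2.84 ± 0.67 for *Dcn* (adjusted p = 0.255). DESeq2 called *Vcan* in GFPiSMC (adjusted p = 0.00758) and *Dcn* in Tgfbr1/2iSMCKO SMCs (adjusted p = 0.00131) as well.

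*Dcn* and *Lum* are typical genes of adventitial fibroblasts, so the levels of fibroblast markers were set beside them. The 5 defining markers *Pdgfra*, *Pi16*, *Dpt*, *Scara5*, and *Clec3b* were all near the floor except *Pdgfra* and *Scara5*. *Pdgfra* stood at 7.08 to 21.7 CPM and *Scara5* at 0.806 to 9.68 CPM. *Pi16* reached at most 2.52 CPM, *Dpt* 4.46 CPM, and *Clec3b* 0.497 CPM, and these last genes had no count in 1 or more libraries. Summed, the 5 genes stood at 23.1 to 28.2 CPM in the GFPiSMC and 25.6 to 36.3 CPM in the Tgfbr1/2iSMCKO ascending/arch. In the descending segment they stood at 8.41 to 12.3 and 10.5 to 16.1 CPM. Their sum was thus low in the descending libraries, as *Dcn* and *Lum* were, and its ranges overlapped between genotypes in each segment. The sizes differed. From the ascending/arch to the descending segment, the mean sum went from 25.5 to 10.8 CPM in GFPiSMC and from 29.3 to 13.1 CPM in Tgfbr1/2iSMCKO. Mean *Lum* went from 46.5 to 3.14 and from 52.9 to 2.00 CPM, and mean *Dcn* from 54.3 to 16.0 and from 72.3 to 10.1 CPM. *Scara5*, a receptor of perivascular fibroblasts, was called lower in the descending segment of GFPiSMC mice, as were the list member *Ackr3* and the glypican *Gpc3*. Of the 15 fibroblast markers tested, 12 had negative values in this comparison in GFPiSMC SMCs (median -0.76) and 9 in Tgfbr1/2iSMCKO SMCs (median -0.70), where 0 were called by edgeR and 7 had an unadjusted p under 0.05. Others went the opposite way without passing the test. *Serpinf1* stood at 14.1 to 16.2 CPM in the ascending/arch and 25.7 to 37.9 CPM in the descending segment of GFPiSMC mice (1.13 ± 0.41, adjusted p = 0.667), and *Pcolce2* was higher in every descending library than in the ascending/arch libraries of its genotype (0.34 and 0.31). The part of fibroblasts in the levels of *Dcn* and *Lum* was not tested. In sorted bulk samples, fewer cells of a type and less RNA per cell cannot be told apart.

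**Figure D4:**
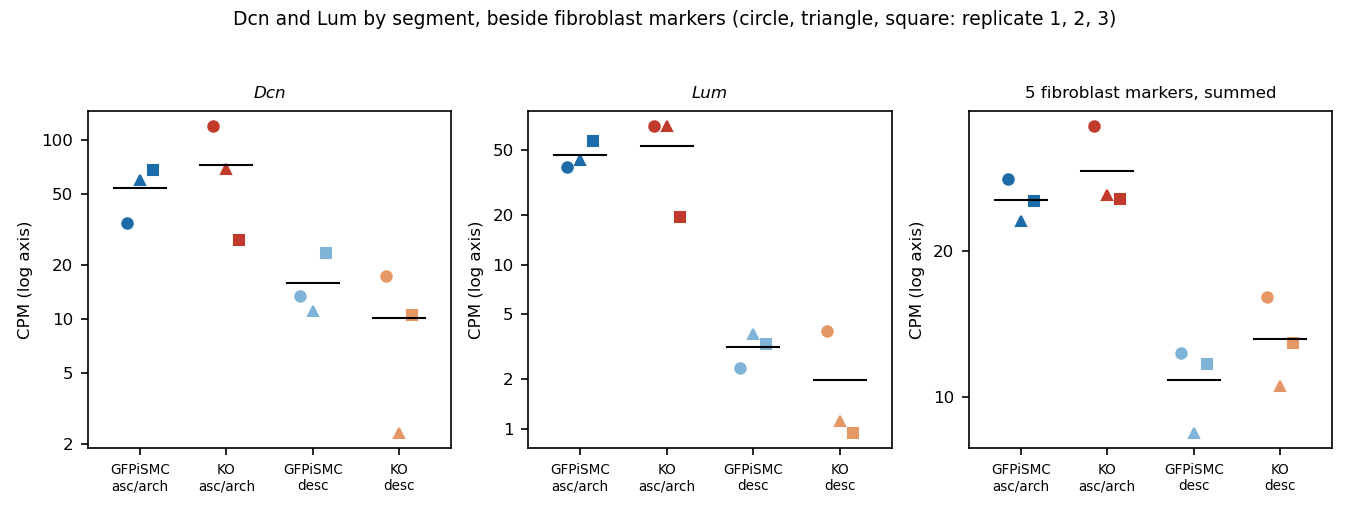
Dcn, Lum, and the sum of 5 defining fibroblast markers (Pdgfra, Pi16, Dpt, Scara5, Clec3b) in each library, in CPM on log axes of different range. Points are libraries, bars are means of 3, and KO stands for Tgfbr1/2iSMCKO. All 3 quantities are lower in the descending groups, the markers at 8.41 to 16.1 against 23.1 to 36.3 CPM.

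With the summed level of the 5 defining markers in the fit, *Bgn* (-1.75), *Aspn* (-3.93), *Omd* (-1.60), and *Vcan* (-1.73) remained called lower in Tgfbr1/2iSMCKO SMCs, and *Dcn* had a log2 fold change of -0.85 ± 0.49 (adjusted p = 0.521). The whole list of 16 fibroblast markers behaved differently. Its sum was 1248 to 1503 CPM in the GFPiSMC and 548 to 653 CPM in the Tgfbr1/2iSMCKO ascending/arch, and 714 to 988 and 521 to 589 CPM in the descending segment. Most of it was *Mfap5*, a microfibril gene at 335 to 1228 CPM that itself fell by 1.24 on the log2 scale (adjusted p = 0.000336). With that sum in the fit *Bgn* kept its call (-2.13, adjusted p = 0.000443), while *Aspn* (-3.41, adjusted p = 0.255), *Omd* (-1.08, adjusted p = 0.804), and *Vcan* (-1.0, adjusted p = 0.529) lost it. *Lum* lay between -0.52 and 0.27 over the alternatives other than animals left out, both marker fits included. Of the 15 fibroblast markers tested, 3 fell (*Serpinf1*, -1.58; *Mfap5*; *Ackr3*, -1.83) and 0 rose, with a median log2 fold change of 0.29.

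Other cell types were at low levels. The endothelial markers *Pecam1*, *Cdh5*, and *Vwf* summed to 50.3 to 102 CPM, nearly all of it *Pecam1*, and of 9 endothelial markers *Cdh5* rose (2.97 ± 0.70, adjusted p = 0.0250, at most 2.71 CPM) and *Erg* fell (-1.13 ± 0.21, adjusted p = 0.00652), with a median of 0.79. Macrophage markers (*Ptprc*, *Adgre1*, *Csf1r*) summed to 3.08 to 7.51 CPM and mesothelial markers (*Msln*, *Upk3b*, *Lrrn4*) to 0.534 to 2.84 CPM. Of 8 macrophage, 6 mesothelial, and 9 SMC markers tested, 0 were called, with medians of 0.55, -0.55, and 0.23. At an unadjusted p under 0.05 there were 2, 1, and 3 of them, and the most abundant of each list were *Cd14* (1.11 to 8.69 CPM), *Wt1* (0.226 to 1.57 CPM), and *Acta2* (20543 to 31929.9 CPM).

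The level of several members moved with the GC index of the libraries. After removal of the group means, Pearson's r with the index over 12 libraries was 0.95 for *Prelp* and -0.94 for *Ogn*. It was -0.78 for *Omd*, 0.67 for *Bgn*, -0.54 for *Aspn*, -0.39 for *Vcan*, -0.30 for *Lum*, and -0.02 for *Dcn*. The median size of r was 0.65 over 11150 genes averaging 100 counts or more, so such values were common. The longest coding transcript of *Prelp* has a GC content of 53.8%, that of *Bgn* 52.5%, and those of *Ogn*, *Omd*, and *Aspn* 36.3%, 36.1%, and 34.3%.

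With the GC index in the fit, the 4 members that fell remained called (2.03% of all genes were), at -1.83 for *Bgn*, -4.07 for *Aspn*, -1.77 for *Omd*, and -1.66 for *Vcan*. *Prelp* then had a log2 fold change of 0.49 ± 0.09 (adjusted p = 0.00321) and *Ogn* of -0.35 ± 0.07 (adjusted p = 0.00791), both below a 2-fold change, in a fit that gave 10.6% of all genes an adjusted p under 0.05, against 5.03% without the index. Without the 3 libraries of high GC index the 4 members were at -1.84, -3.97, -1.68, and -1.85 and all were called, and *Prelp* stood at 0.33 (adjusted p = 0.296) and *Ogn* at -0.29 (adjusted p = 0.578). This index was added after the data were seen.

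**Figure D5:**
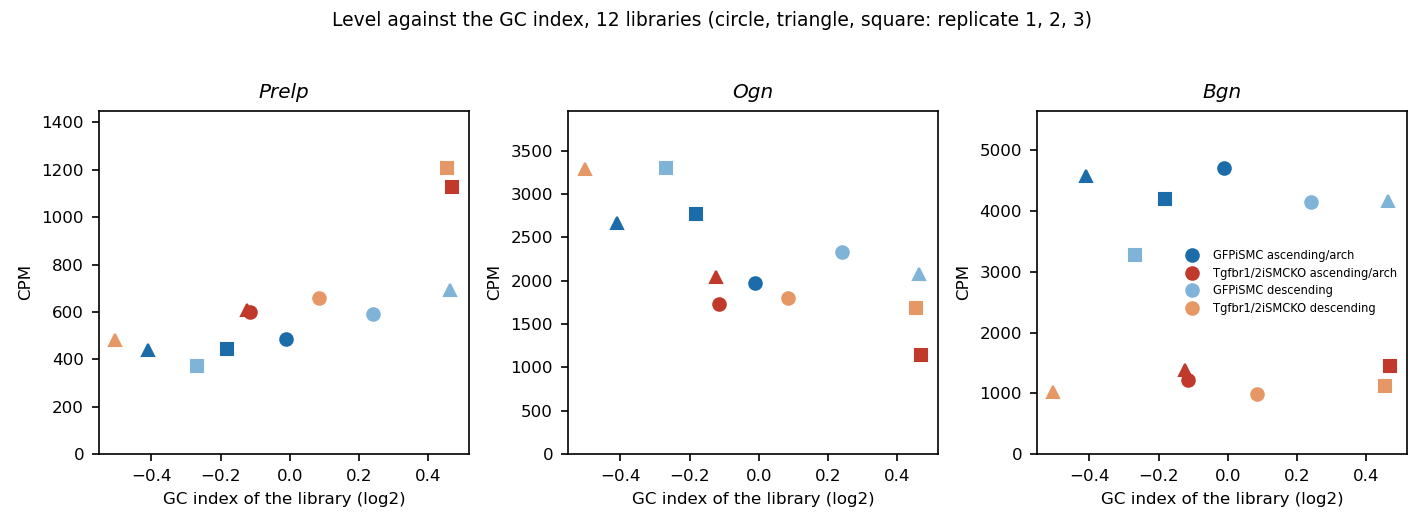
Level of Prelp, Ogn, and Bgn in CPM against the GC index of each library, a log2 difference between GC-rich and GC-poor genes. Points are the 12 libraries, coloured by group and marked by replicate. The 3 libraries with the highest index hold the 3 highest Prelp values and Ogn at 1139 to 2080.2 CPM, while Bgn separates the genotypes along the whole range.

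By Pearson's r of log2 CPM over the 12 libraries, after removal of the 4 group means, the 3 genes most like *Bgn* were *Scrn3* (r = 0.970), *Pgghg* (0.960), and *Htatip2* (0.959). They were *Dip2c* (0.964), *Elovl1* (0.949), and *Igf1* (0.926) for *Dcn* and *Mrpl1* (0.944), *Zfp708* (0.943), and *Asap2* (0.938) for *Aspn*. For *Lum* they were *Nxt1* (0.927), *Srd5a3* (0.909), and *Gm2a* (0.907), and for *Omd* *Orc4* (0.942), *Slc25a36* (0.941), and *Paip2* (0.935). *Prelp* was followed most closely by *Nucb1* (0.996), *Dkk3* (0.995), and *Atg4b* (0.993), *Ogn* by *Ube2w* (0.990), *Sh3bgrl* (0.986), and *Vps29* (0.983), and *Vcan* by *Elk4* (0.978), *Serpini1* (0.902), and *Gsdme* (0.889). No member was among the 3 closest genes of another. These likenesses describe 12 libraries that share depth and base composition effects, and *Fmod* was too low to be compared. The named genes were picked as the highest r among 11150 genes. High values can arise from that choice alone, and they were not tested.

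Genes that make, modify, bind, or cut these core proteins were also examined over both segments. Of 8 other small leucine-rich proteoglycan genes tested, *Ecm2* and *Podn* (podocan) fell and 0 rose. *Podn* had -1.59 ± 0.40 (adjusted p = 0.0355) at 0.135 to 6.20 CPM, and the list had a median log2 fold change of -0.08. Of 11 genes for hyaluronan synthases and hyaluronan-binding proteins, *Tnfaip6* fell, whose product TSG-6 moves heavy chains onto hyaluronan (-1.59 ± 0.27, adjusted p = 0.00277), and the median was -0.43. *Hapln1*, the link protein gene beside *Vcan*, had -0.58 ± 0.30 (adjusted p = 0.389), *Acan* -1.43 ± 0.53 (adjusted p = 0.176), and the hyaluronan receptor *Cd44* 0.10 ± 0.18 (adjusted p = 0.883).

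Of 21 other proteoglycan core protein genes tested, *Ptprz1*, a receptor phosphatase with chondroitin sulfate chains, fell (-2.02 ± 0.15, adjusted p = 2.18e-06, 353 to 477 CPM in controls and 72.8 to 136 CPM in Tgfbr1/2iSMCKO libraries). *Agrn*, *Sdc4*, and *Cspg4* had an adjusted p under 0.05 below the 2-fold limit with negative values (-1.0, -0.64, and -0.99), *Tgfbr3*, the co-receptor betaglycan, had a positive value (0.52), and the median was -0.29. Of 21 enzymes of chondroitin and dermatan sulfate synthesis, *Chsy3*, a chain polymerase, and *Chst3*, a 6-O-sulfotransferase, fell (-2.02 ± 0.30, adjusted p = 0.00101, and -1.67 ± 0.17, adjusted p = 5.47e-05). *Xylt1*, which starts the chains, had -0.89 ± 0.18 (adjusted p = 0.00877), short of the 2-fold limit, and the median was -0.28 with 18 of 21 values negative. Of 12 proteinases tested that can cut these proteins, *Adamts8* (-1.08 ± 0.20, adjusted p = 0.00529) and *Adamts9* (-1.42 ± 0.29, adjusted p = 0.0116) fell. *Adamts15* rose (1.27 ± 0.28, adjusted p = 0.0172), from 14.7 to 50.1 CPM in controls to 35.1 to 123 CPM in Tgfbr1/2iSMCKO libraries, which overlapped. Its highest values, 84.0 and 123 CPM, were in both libraries of Tgfbr1/2iSMCKO replicate 3, which had a high GC index. The median of that list was -0.18.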

How the data were processed

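Bulk RNA-seq of sorted SMCs gave 12 libraries. The authors trimmed reads, aligned them with HISAT2 to GRCm38 (mm10 in the submitters' processing notes, which also name DESeq2), and quantified GENCODE genes with StringTie, and the deposited values are whole-number gene counts without normalization between libraries. A count of 1 (22574 values) was rarer than a count of 2 (32279 values), so a count may not be a single fragment. Symbols and positions came from GENCODE M21, which matched 52489 of 52636 genes by identifier. The 9 members and all gene lists were chosen with earlier results of these data known.

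Genes were filtered with filterByExpr, scaled by TMM, and fitted in edgeR 4.0.16 (R 4.3.3) by the quasi-likelihood test with segment and genotype over both segments, and with 4 group means within segments and between them. P values were adjusted by Benjamini-Hochberg over 22320 genes, and a call needed an adjusted p under 0.05 and a change beyond 2-fold (adjusted p alone for the difference between segments). The SE was taken as the size of the change divided by √F. The labels number replicates within a genotype, and same-numbered libraries of a genotype were taken as 1 animal in the alternatives that sum counts or block by animal. The p values of the tests over both segments treat segments as separate samples.

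The GC index of a library is the median log2 deviation of genes with a GC content above 54.4% minus that of genes below 44.9%, the quartiles over 10380 genes, from longest coding transcripts. By rule the text names all members, both receptors, the called genes of the other lists, the defining and most abundant markers, and the 3 genes most like each member (mean of at least 100 counts). *Hapln1*, *Acan*, *Cd44*, *Xylt1*, *Agrn*, *Sdc4*, *Cspg4*, *Tgfbr3*, *Gpc3*, *Pcolce2*, and the antisense genes fall outside it and were chosen after their values were seen. Only the edgeR test of genotype over both segments was run on simulated counts. Those libraries were drawn independently, without animal, segment, or GC effects, so that run cannot show how such effects alter the results. The fits within and between segments, with covariates, or with blocks were not tested in this way. Alternatives were DESeq2 1.42.0, limma-voom (limma 3.58.1), other scalings, filters, and covariates, a replicate block, and animals left out in turn. The GC index fits and the fit with 5 defining fibroblast markers were chosen after seeing the data.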

Additional observations from a re-analysis of the deposited data

How the results depend on the processing

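The calls of *Bgn*, *Aspn*, *Omd*, and *Vcan* over both segments held with DESeq2, limma-voom, RLE or library size scaling, other filters, counts summed per animal, and each animal left out, and 0 members were called higher. With the summed level of 16 fibroblast markers in the fit the 4 members lower became 1 (*Bgn*), and *Dcn* (0.26), *Prelp* (-0.02), and *Ogn* (0.09) changed sign. That sum is mostly *Mfap5*, which itself fell, and the cause was not tested. The log2 fold change of *Dcn* also turned to 0.23 with DESeq2 with genotype alone, 0.23 with edgeR without segment, 0.01 with library size only, 0.25 with counts summed per animal, and 0.06 without the 3 libraries of highest GC index. *Lum* turned to 0.15, 0.15, 0.15, and 0.27 under the first 2 and the last 2 of these. Library size scaling moved the median of all genes to 0.16, and gave -1.69, -3.96, -1.66, and -1.58 for the 4 members. *Fmod*, at 0.33 in the main fit, kept its sign over both segments. It ranged from 0.12 to 1.38 over the alternatives other than those leaving animals out.

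DESeq2 with 4 groups called 2 members between segments in each genotype, in place of 1. With animals left out these counts ranged from 0 to 1 in both genotypes. *Omd* in the descending segment was called by DESeq2 (-1.21, adjusted p = 0.0445), and *Vcan* there was not with that segment fitted alone (-1.5, adjusted p = 0.0680).

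With animals left out in turn, log2 fold changes over both segments ranged from -0.71 to 0.16 for *Dcn* and from -0.73 to 0.16 for *Lum*. In the ascending/arch they ranged from -0.17 to 0.80 for *Dcn*, from -0.06 to 0.57 for *Lum*, and from -0.73 to 0.62 for *Fmod*, and in the descending segment from -0.56 to 0.03 for *Ogn*. Between segments they ranged from -0.06 to 0.25 for *Ogn* in GFPiSMC, and from -0.45 to 0.91 for *Fmod*, -0.09 to 0.11 for *Prelp*, and -0.53 to 0.58 for *Omd* in Tgfbr1/2iSMCKO SMCs.

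Numbers shared between genotypes did not pair the libraries (correlations of -0.527 to 0.216). Of the 3 libraries of its genotype in the other segment, 6 of 12 libraries were closest to their own number. Same-numbered libraries of a genotype correlated at 0.187, -0.242, and 0.024 in GFPiSMC replicates 1 to 3. In Tgfbr1/2iSMCKO replicates 1 to 3 the values were 0.0612, 0.377, and 0.661. A shared animal thus remains an assumption. With the replicate number as a block *Bgn* (-1.81), *Aspn* (-4.14), *Omd* (-1.83), and *Vcan* (-1.69) stayed called over both segments. With the block and each segment fitted alone, the 3 members called in the descending segment became 0. They were *Bgn* (-1.87) and *Aspn* (-3.86), each with an adjusted p of 0.0852, and *Vcan* (-1.48, adjusted p = 0.314). Fits of a segment alone hold fewer samples than the main fit. Without the block, that fit kept the descending calls of *Bgn* and *Aspn* but not of *Vcan*. With the block, *Fmod* in the ascending/arch turned to -0.05. With the animal as a block *Lum* stayed called between segments in both genotypes, and *Prelp* in Tgfbr1/2iSMCKO SMCs turned to -0.03.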
